A study of Mus musculus with 9 samples.

Results

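The 8 genes described here are the constant-region genes of the mouse immunoglobulin heavy chain: Ighm, Ighd, Ighg3, Ighg1, Ighg2b, Ighg2c, Ighe and Igha. They were chosen by symbol from the deposited count table of 46958 genes. All 8 were among the 14199 genes that passed the filter on low counts. Ighe passed only through the WT libraries, since it had at least 10 counts in 3 WT libraries and in 0 libraries of each other genotype.

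RNA was sequenced from spleen cells selected with magnetic beads for CD138, a surface protein of plasma cells, at a stated purity above 80%. The mice were 3 months old and not immunized, and all had a mixed background of C57/BL6, 129/SV and BALB/c. The genotypes were WT, DH-LMP2A and kFRA, with 3 mice and 1 library per mouse in each. kFRA mice make a free light chain of a patient with LCDD (light chain deposition disease), and the question of the series is whether that chain harms the cells that secrete it. The labels do not describe the alleles. As background on these strains, LMP2A is a membrane protein of a human herpesvirus that gives B cells a signal like that of the B cell receptor. In DH-LMP2A mice its gene stands in the heavy-chain locus, so that B cells mature without a heavy chain. In the published line, kFRA mice carry a human kappa variable region in the kappa locus and were bred with DH-LMP2A mice. The labels do not state whether these kFRA mice carry the LMP2A allele too. If they do, kFRA and WT differ in the heavy-chain locus as well as in the light chain. The parts of these alleles in the kFRA values against WT could then not be told apart.

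A heavy-chain locus begins with variable, D and joining segments, 1 of each of which is joined in a developing B cell and spliced to the nearest constant gene, Ighm, to make IgM. Ighd is reached by splicing of a longer transcript, and is typical of mature naive B cells. The genes beyond Ighd are used after class switching, in which DNA is cut before Ighm and before a downstream gene and the stretch between is lost. Each constant gene also gives an unrearranged, so-called germline transcript that carries no variable region, and gene-level counts do not separate that transcript from a full heavy-chain message.

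The genes lie in 1 row on the minus strand of chromosome 12 (GRCm38). Ighm (GENCODE M21 gene ENSMUSG00000076617.9) spans chr12:113418558-113422730 and Ighd (ENSMUSG00000104213.5) chr12:113406604-113416324. The IgG genes follow in the order Ighg3 (ENSMUSG00000076615.4, chr12:113359575-113361232), Ighg1 (ENSMUSG00000076614.7, chr12:113325240-113330523), Ighg2b (ENSMUSG00000076613.4, chr12:113302965-113307933) and Ighg2c (ENSMUSG00000076612.8, chr12:113285325-113288932). Ighe (ENSMUSG00000087642.3) spans chr12:113271174-113273248 and Igha (ENSMUSG00000095079.6), the farthest, chr12:113254830-113260236. The start of Igha lies 162.5 kb from that of Ighm. Counts were summed over exons, and no other gene of the annotation overlaps a member. For Ighg3 and Ighe the table counts 4 of the 6 exons of GENCODE M21 and leaves out those of the membrane form.

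The 4 IgG genes are close copies, so how well their reads can be told apart bears on every comparison between them. They differ most in the hinge exon, which codes for the flexible joint of the antibody, where cysteines link the heavy chains. The hinge exons are shown as read from the GENCODE M21 transcripts, 5′ to 3′ on the minus strand, with the in-frame cysteine codons in capitals. They lie at chr12:113360529-113360576 (Ighg3), chr12:113329844-113329882 (Ighg1), chr12:113307261-113307326 (Ighg2b) and chr12:113288263-113288325 (Ighg2c).
Ighg3: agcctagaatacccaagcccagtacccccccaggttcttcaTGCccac
Ighg1: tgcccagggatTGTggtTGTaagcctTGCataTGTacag
Ighg2b: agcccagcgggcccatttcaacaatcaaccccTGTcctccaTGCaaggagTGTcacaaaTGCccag
Ighg2c: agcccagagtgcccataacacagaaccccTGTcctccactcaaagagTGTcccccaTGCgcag
The Ighg3 hinge has 1 cysteine codon in 48 bases, against 4 in 39 for Ighg1, 4 in 66 for Ighg2b and 3 in 63 for Ighg2c.

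Outside the hinge the IgG genes are more alike, with 78.4% to 88.3% identical bases over the 291 aligned bases of the first constant exon (CH1). The longest stretch shared by Ighg2b and Ighg2c is 78 bases of coding sequence, at chr12:113306869-113306946 in Ighg2b, and is shown in lower case because no base differs.
Ighg2b and Ighg2c: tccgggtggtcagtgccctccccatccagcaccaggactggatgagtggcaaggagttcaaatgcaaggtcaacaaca
Of all 75-base windows, the length of 1 read, 0.768% in Ighg2b, 0.574% in Ighg3 and 0.48% in Ighg2c occur in another member, and 0 in the other members. At 31 bases the share reaches 15% in Ighg2c and 9.29% in Ighg2b. The shared 75-base windows of Ighg3 lie in an 88-base stretch shared with Ighg2b, in exons of the membrane form that the table leaves out for Ighg3. At 31 bases 3.63% of the Ighg3 windows are shared. A 41-base stretch that Ighg3 shares with Ighg2c lies in counted exons of both genes. How reads that map to several places were counted is not given in the sources used here, and the size of any error in single IgG genes was not tested. A further limit concerns Ighg2c. C57BL/6 mice carry Ighg2c where BALB/c and 129 mice carry Ighg2a, the table has an Ighg2c entry only, and where reads from an Ighg2a allele were counted was not tested.

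The libraries held 15449026 to 21558128 counts in genes, and 3 counts, the floor used here, corresponded to 0.139 to 0.194 CPM (counts scaled to a common library total). CPM below is adjusted by edgeR's trimmed mean of M values (TMM), with factors from 0.780 in WT replicate 3 to 1.22 in kFRA replicate 2. CD138 itself (Sdc1) was present at 411 ± 118 CPM in WT, against 575 ± 94.3 in DH-LMP2A and 611 ± 93.3 in kFRA (SD, n = 3 each). Summed over 8 plasma cell markers, CPM was 18875 to 24122 in WT, against 34119 to 47121 in DH-LMP2A and 20385 to 32038 in kFRA. Jchain made up most of that sum in every library. Of the 8, 2 were higher and 1 lower in kFRA than in WT, and 3 and 1 in DH-LMP2A. Of all genes, 6.68% and 5.07% were called higher and 11.1% and 7.3% lower. The summed CPM of 8 B cell markers was 630.2 to 915.4 in WT, against 731.0 to 1103 in DH-LMP2A and 540.0 to 634.1 in kFRA, and that of 8 T cell markers was 80.0 to 163.9 over all libraries. The 8 myeloid markers summed to 2276 to 3564 CPM in WT, against 2560 to 3590 in DH-LMP2A and 3519 to 4782 in kFRA. Most of that sum in DH-LMP2A and kFRA was 1 gene, Ly6c2, at 203.8 to 453.5 CPM in WT, against 2105 to 2397 in DH-LMP2A and 2160 to 4023 in kFRA. The log2 fold changes of 7 of the 8 myeloid markers were negative in kFRA against WT (median -1.76) and 6 in DH-LMP2A (median -1.43). The 7 erythroid markers summed to 37.3 to 324.4 CPM in WT, against 2417 to 12837 in DH-LMP2A and 1085 to 2575 in kFRA, without overlap between WT and the other genotypes. No marker list was at 0 in any library, and the part of these other cells in the results below was not tested.

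In WT the heavy-chain genes together took 21.9%, 24.3% and 27.1% of all counts. The same genes took 1.16%, 1.12% and 1.09% in DH-LMP2A and 0.883%, 0.889% and 0.968% in kFRA. The genes differed in how far they were lower: Ighm and Ighd were 15.8-fold to 19.2-fold lower than in WT, whereas the downstream genes were lower by 57.9-fold (Ighg3 in kFRA) to 9690-fold (Ighg2c in kFRA). In a bulk sample, fewer cells of a type and less RNA per cell cannot be told apart.

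**Figure D1:**
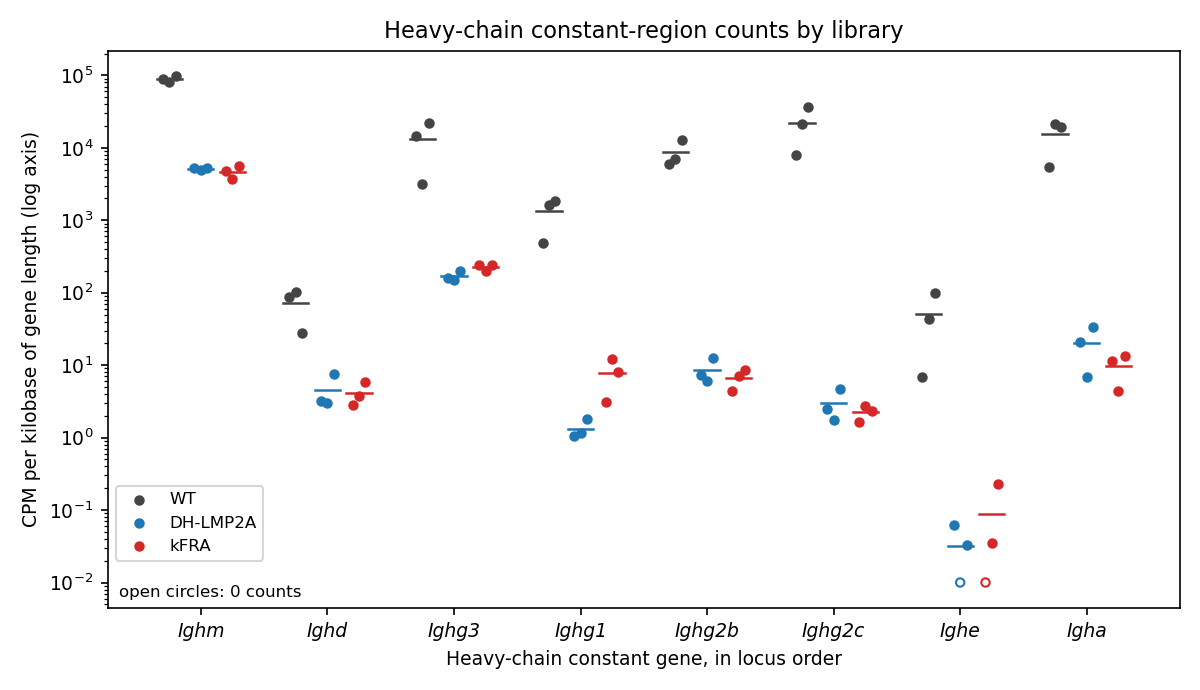
CPM per kilobase of gene length (log axis) of the 8 genes in locus order, with 1 point per library and a bar at the mean of each genotype; open circles at the bottom stand for 0 counts. The WT libraries lie above those of DH-LMP2A and kFRA for every gene, and Ighm is the highest gene in all 9 libraries.

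The 7 members other than Ighe had at least 10 counts in all libraries. All 7 were lower in kFRA than in WT and lower in DH-LMP2A than in WT by edgeR's quasi-likelihood test with Benjamini-Hochberg adjustment over all genes. Of all genes tested, 11.1% were called lower in kFRA and 7.3% in DH-LMP2A. The libraries of these 7 did not overlap between WT and either genotype, against 34.3% of all genes for kFRA and 36.6% for DH-LMP2A. The median log2 fold change of the 7 was -7.42 in kFRA and -9.57 in DH-LMP2A, while the median of all genes was -0.04 and -0.01. Ighe, which passed the filter only through WT, is described by its counts. These comparisons share the WT libraries. P-values measure the spread between single mice of each genotype.

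Ighm, which encodes the heavy chain of IgM, was at 168499, 154127 and 184189 CPM in the WT libraries, at 9848, 9358 and 10020 in DH-LMP2A and at 9000, 6975 and 10461 in kFRA. The WT libraries were close to each other, with a coefficient of variation of 8.9%, and all lay far above the other 6. Ighm was 17.3-fold lower in DH-LMP2A than in WT (log2 ratio -4.12 with SE 0.389; adjusted p = 0.000171 by edgeR) and 19.2-fold lower in kFRA (log2 ratio -4.26 with SE 0.392; adjusted p = 9.71e-05 by edgeR). It remained abundant in the genotypes with few heavy-chain counts: 201866 to 232952 counts per library in DH-LMP2A and 131699 to 166907 in kFRA.

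Ighd, the constant gene of IgD, was measured at 167.3, 191.6 and 53.5 CPM in WT, at 6.09, 5.79 and 14.2 in DH-LMP2A and at 5.40, 7.08 and 11.03 in kFRA. Within their genotypes WT replicate 3 was low and DH-LMP2A replicate 3 high, yet the ranges of WT and the other genotypes stayed apart. Ighd was 15.8-fold lower in DH-LMP2A (log2 ratio -3.98 with SE 0.556; adjusted p = 0.00205 by edgeR) and 17.5-fold lower in kFRA (log2 ratio -4.13 with SE 0.563; adjusted p = 0.00132 by edgeR). The fold changes of Ighd were close to those of Ighm, and Ighd stood at 0.842 ± 0.494 counts per 1000 Ighm counts in WT, against 0.884 ± 0.460 in DH-LMP2A and 0.890 ± 0.252 in kFRA (SD, n = 3 each).

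Ighg3 encodes IgG3, a subclass often made against polysaccharides. It was at 15603, 3379 and 23775 CPM in WT, at 170.2, 162.6 and 217.1 in DH-LMP2A and at 260.9, 217.9 and 259.3 in kFRA. WT replicate 2 was the lowest of its group by a wide margin and was still above every library of the other genotypes. Ighg3 was 77.8-fold lower in DH-LMP2A (log2 ratio -6.28 with SE 0.681; adjusted p = 0.000442 by edgeR) and 57.9-fold lower in kFRA (log2 ratio -5.86 with SE 0.668; adjusted p = 0.000423 by edgeR), which made it the downstream gene with the smallest fold change in both comparisons.

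Ighg1, a subclass made in large amounts in responses with help from T cells, had 1276, 4260 and 4849 CPM in WT, against 2.75, 3.01 and 4.62 in DH-LMP2A and 8.13, 31.7 and 20.9 in kFRA. No library of 1 genotype fell within the range of another, and WT replicate 1 was the lowest WT library. Relative to WT, Ighg1 was 999-fold lower in DH-LMP2A (log2 ratio -9.96 with SE 0.805; adjusted p = 6.2e-05 by edgeR) and 171-fold lower in kFRA (log2 ratio -7.42 with SE 0.721; adjusted p = 0.000143 by edgeR).

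Ighg2b was at 16190, 18985 and 34467 CPM in WT, at 19.6, 15.99 and 33.3 in DH-LMP2A and at 11.7, 19.3 and 23.0 in kFRA. The DH-LMP2A and kFRA libraries were intermixed. Ighg2b was 1010-fold lower in DH-LMP2A (log2 ratio -9.98 with SE 0.601; adjusted p = 8.5e-06 by edgeR) and 1290-fold lower in kFRA (log2 ratio -10.33 with SE 0.61; adjusted p = 3.93e-06 by edgeR).

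Ighg2c, known as the IgG subclass that interferon-gamma favours in C57BL/6 mice, was at 10649, 28034 and 48439 CPM in WT, at 3.30, 2.32 and 6.17 in DH-LMP2A and at 2.19, 3.66 and 3.07 in kFRA. WT replicate 1 was the lowest WT library, and DH-LMP2A and kFRA again overlapped. Its fold changes were the largest among the 8 genes, 7380-fold in DH-LMP2A (log2 ratio -12.85 with SE 0.865; adjusted p = 1.81e-05 by edgeR) and 9690-fold in kFRA (log2 ratio -13.24 with SE 0.878; adjusted p = 8.82e-06 by edgeR). Here 50 to 135 counts per DH-LMP2A library and 32 to 77 per kFRA library stood against 210422 to 761185 in WT.

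Ighe encodes IgE, the antibody of mast cell and basophil responses, which is normally rare. It had 185, 1160 and 2158 counts in the WT libraries, 2, 0 and 1 in DH-LMP2A and 0, 1 and 5 in kFRA. In DH-LMP2A and kFRA all but 1 library, kFRA replicate 3, were at or under the floor of 3 counts. In WT these counts came to 9.36, 59.1 and 137.3 CPM, so that replicate 3 had the most of a gene that varied more between WT mice than any other member (coefficient of variation 94.0%). Summed over libraries and set against TMM-scaled totals, Ighe was 1420-fold higher in WT than in DH-LMP2A (3503 against 3 counts, 95% interval 486 to 6900) and 547-fold higher than in kFRA (3503 against 6 counts, 251 to 1490). These intervals cover counting error only.

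Igha, the gene of IgA, the antibody of mucosal surfaces, was at 14424, 57552 and 52352 CPM in WT, at 54.8, 18.2 and 91.0 in DH-LMP2A and at 30.5, 11.8 and 36.1 in kFRA. WT replicate 1 was the low library in its group, and replicate 2 was lowest in both of the other genotypes. Igha was 758-fold lower in DH-LMP2A (log2 ratio -9.57 with SE 0.984; adjusted p = 0.000314 by edgeR) and 1590-fold lower in kFRA (log2 ratio -10.63 with SE 1.02; adjusted p = 0.000134 by edgeR).

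**Figure D2:**
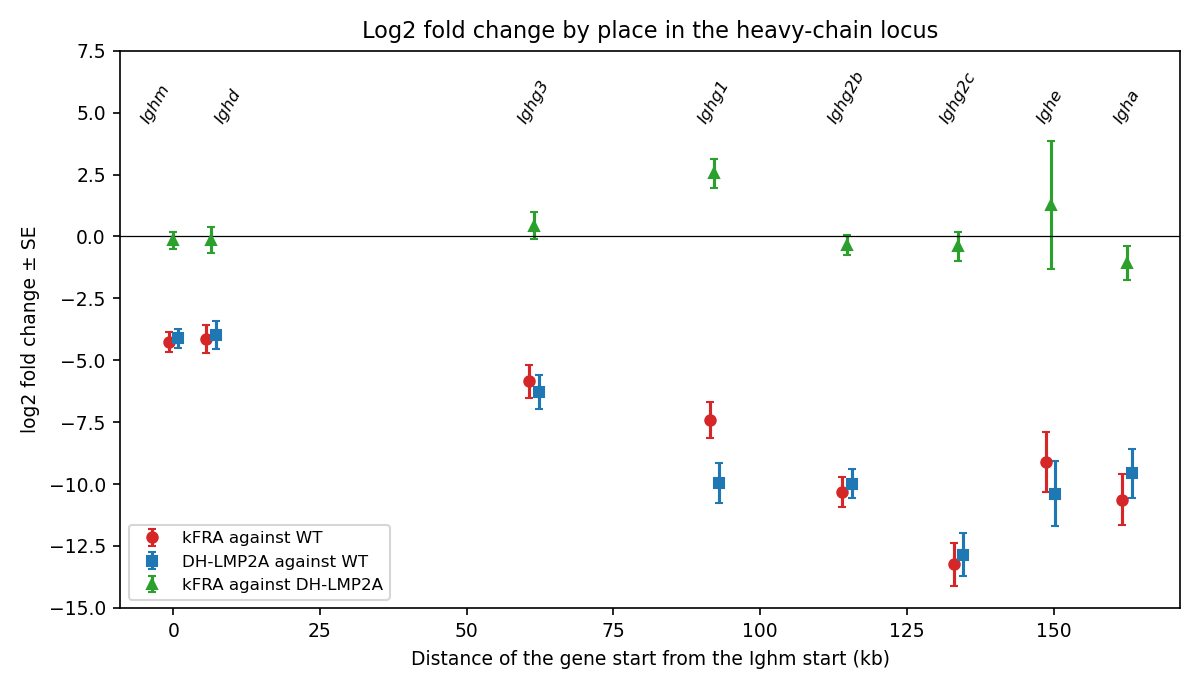
Log2 fold change with its SE (vertical axis) of each gene in the 3 comparisons, against the distance in kb of the gene's start from that of Ighm; the fitted value of Ighe rests on 0 to 5 counts per DH-LMP2A or kFRA library and depends on the fit's prior count. Against WT the points of Ighm and Ighd lie near -4, those of Ighg3 near -6 and those of the other genes between -7.42 and -13.24, while against DH-LMP2A only Ighg1 in kFRA (2.55) was called.

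kFRA and DH-LMP2A differed from each other in 1 of the 8 genes. Ighg1 was 5.86-fold higher in kFRA (log2 ratio 2.55 with SE 0.598; adjusted p = 0.0428 by edgeR), with 119, 666 and 333 counts in kFRA against 65, 65 and 101 in DH-LMP2A. No member was called lower in kFRA. Of all genes tested, 1.73% were called higher and 3.3% lower. The Ighg1 call ended when the libraries were scaled by their totals alone (adjusted p = 0.0674) and without DH-LMP2A replicate 1, 2 or 3 or kFRA replicate 3 (edgeR adjusted p from 0.0691 to 0.15), while its log2 fold change lay between 2.14 and 2.92 under all alternatives run. The longest stretch that Ighg1 shares with another member is 59 bases, and no 75-base window of Ighg1 occurs in another member. At 31 bases 1.72% of the Ighg1 windows are shared, and the part of shared reads in the Ighg1 counts was not tested.

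None of the other 7 genes was called. The kFRA libraries of Ighg3 lay above all DH-LMP2A libraries, with 246.0 ± 24.4 against 183.3 ± 29.5 CPM (SD, n = 3 each), but the difference was not called (log2 ratio 0.42 with SE 0.543; adjusted p = 0.676 by edgeR). Only Ighg3 and Ighg1 had libraries without overlap, against 25.6% of all genes. The log2 fold changes were -0.14 (SE 0.343) for Ighm, -0.15 (SE 0.517) for Ighd, -0.35 (SE 0.416) for Ighg2b, -0.39 (SE 0.581) for Ighg2c and -1.07 (SE 0.694) for Igha, with edgeR adjusted p from 0.385 to 0.891. Ighe had too few counts in both genotypes for a fold.

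Per kilobase of gene length, Ighm was the highest gene in every genotype, at 89575 ± 7972 CPM per kb in WT, against 5165 ± 182 in DH-LMP2A and 4672 ± 928 in kFRA (SD, n = 3 each). In WT it was followed by Ighg2c with 21901 CPM per kb, Igha with 15533, Ighg3 with 13172, Ighg2b with 8668, Ighg1 with 1336, Ighd with 72.3 and Ighe with 50.2. Neighbours in the WT order overlapped between libraries except Ighm over Ighg2c, Ighg2b over Ighg1 and Ighg1 over Ighd. Within single WT libraries, Igha over Ighg3 held in 1 of 3 and the other overlapping steps in 2 of 3. The lengths are not fully alike, since those of Ighg3 (1082 bases) and Ighe (1367) leave out exons of the membrane form. Those of Ighg1 (2592) and Ighg2b (2678) include them, so places in the order depend in part on the length used. Before division by length, the WT means were 14252 CPM for Ighg3 and 23214 for Ighg2b.

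The order below Ighm was different in the other genotypes. Ighg3 came next in both, at 169.4 CPM per kb in DH-LMP2A and 227.4 in kFRA, and then Igha, at 20.5 and 9.81. Both steps held without overlap. In DH-LMP2A there followed Ighg2b at 8.58, Ighd at 4.57, Ighg2c at 2.96 and Ighg1 at 1.33 CPM per kb, each overlapping its neighbour, and Ighe was apart at 0.0318. Within single libraries each of these steps held in 3 of 3 DH-LMP2A libraries. In kFRA there followed Ighg1 at 7.80, Ighg2b at 6.71 and Ighd at 4.12, each overlapping the gene before it, and then Ighg2c at 2.24 and Ighe at 0.0880 CPM per kb, each apart from the gene before it. Of the 3 kFRA libraries, Igha over Ighg1 held in 2, Ighg1 over Ighg2b in 1 and Ighg2b over Ighd in 3.

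Shares of the heavy-chain counts within a library are free of the scaling between libraries. Ighm took 74.3%, 57.8% and 52.9% of them in WT, 97.5%, 97.8% and 96.5% in DH-LMP2A and 96.6%, 96.0% and 96.7% in kFRA. The mean share was 61.7% ± 11.2 in WT, against 97.3% ± 0.701 in DH-LMP2A and 96.4% ± 0.391 in kFRA (SD, n = 3 each), without overlap between WT and the others. Exact Clopper-Pearson 95% intervals of the Ighm share in single libraries were at most 0.0987 percentage points to either side, below the SD between mice in each genotype. For members with few counts, counting error is a larger part of the spread. In DH-LMP2A replicate 1 the interval of the Ighg1 share was 0.0210% to 0.0347%, beside an SD of 0.00899 between DH-LMP2A mice.

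The 6 genes downstream of Ighd together made up 38.3% ± 11.2 of the heavy-chain counts in WT, against 2.66% ± 0.658 in DH-LMP2A and 3.48% ± 0.386 in kFRA (SD, n = 3 each). Igha made up 14.3% ± 7.64 of the heavy-chain counts in WT, against 0.536% ± 0.343 in DH-LMP2A and 0.275% ± 0.0970 in kFRA. In the same order of genotypes Ighg2c took 9.71% ± 4.66, 0.0388% ± 0.0184 and 0.0341% ± 0.0143. Ighg2b took 8.05% ± 1.60, 0.227% ± 0.0822 and 0.201% ± 0.0705. For Ighg1 the shares were 1.18% ± 0.548, 0.0344% ± 0.00899 and 0.239% ± 0.179.

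Ighd and Ighg3 were the 2 members whose shares overlapped between WT and the other genotypes. Ighd took 0.0537% ± 0.0332 of the heavy-chain counts in WT, against 0.0858% ± 0.0439 in DH-LMP2A and 0.0858% ± 0.0242 in kFRA (SD, n = 3 each). Ighg3 took 4.99% ± 3.22, 1.82% ± 0.230 and 2.73% ± 0.306. Over the 24 exact 2-sided permutation tests of shares, 6 of 8 members reached p = 0.1 in each comparison with WT, the smallest p that 3 against 3 libraries allow (adjusted p = 0.171), so no share can pass 0.05. Between kFRA and DH-LMP2A, the shares of Ighg3 and Ighg1 did not overlap and were higher in kFRA.

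**Figure D3:**
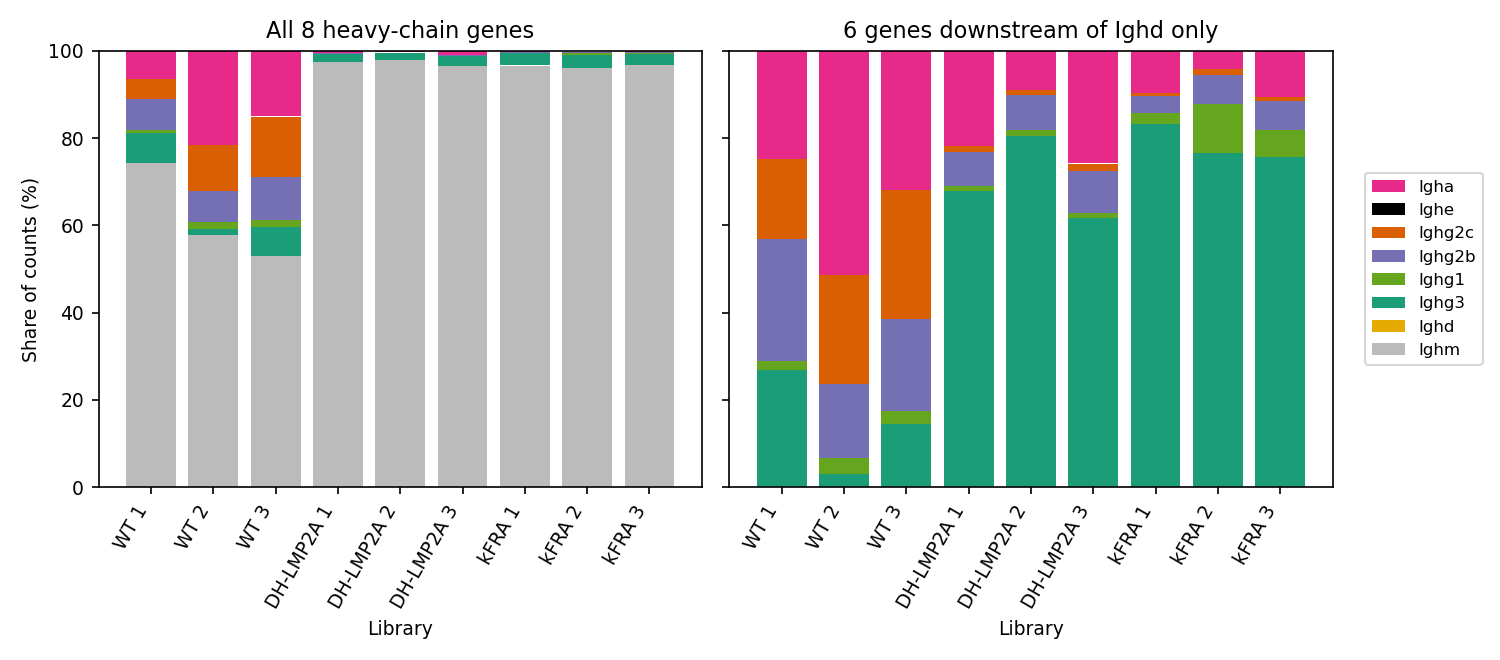
Share (%) of each gene among the counts of all 8 heavy-chain genes (left) and among the 6 genes downstream of Ighd (right), with 1 bar per library; segments under 0.1% are not drawn. Ighm takes 52.9% to 74.3% in WT and 96.0% to 97.8% elsewhere, and Ighg3 leads the downstream genes in all 6 DH-LMP2A and kFRA libraries.

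Within the downstream counts alone, Ighg3 took 26.8%, 3.01% and 14.5% in WT, 67.9%, 80.5% and 61.6% in DH-LMP2A and 83.2%, 76.6% and 75.7% in kFRA. WT lay below every other library, and the other genotypes overlapped. Igha took 36.0% ± 13.7 of these counts in WT, against 18.9% ± 8.81 in DH-LMP2A and 8.15% ± 3.47 in kFRA (SD, n = 3 each). Ighg2c took 24.3% ± 5.64, 1.40% ± 0.313 and 0.960% ± 0.3000. Ighg1 was at 2.98% ± 0.800 in WT, against 1.30% ± 0.198 in DH-LMP2A and 6.61% ± 4.29 in kFRA, where replicates 1, 2 and 3 had 2.59%, 11.1% and 6.09%.

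Whether the Ighm counts came with joined segments can be read in part from the segments before Ighm. The 4 joining segments Ighj1 to Ighj4 together had 28079, 32867 and 43531 counts in WT, against 0, 0 and 4 in DH-LMP2A and 1, 1 and 1 in kFRA. The 20 D segments had 132 to 170 counts in WT and 0 or 1 in every other library. Joining segments are shorter than a read, and gene-level counts do not show whether a read joined a segment to Ighm.

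The 183 Ighv genes had 984164, 1162816 and 1248293 counts in WT, against 125, 73 and 258 in DH-LMP2A and 4395, 4112 and 4485 in kFRA. In kFRA nearly all of these lay in 1 gene, Ighv4-1, chosen here after its values were seen. Ighv4-1 had 4311, 3821 and 4422 counts in kFRA, or 98.1%, 92.9% and 98.6% of all Ighv counts, against 1, 0 and 3 in DH-LMP2A and 8434, 10467 and 6744 in WT. The other Ighv genes of kFRA summed to 84, 291 and 63 counts, beside 131699 to 166907 counts of Ighm. In WT the leading variable gene was Ighv1-53, with 8.11% to 11.3% of the Ighv counts. Reads can be shared within the Ighv family, so single genes are uncertain.

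**Figure D4:**
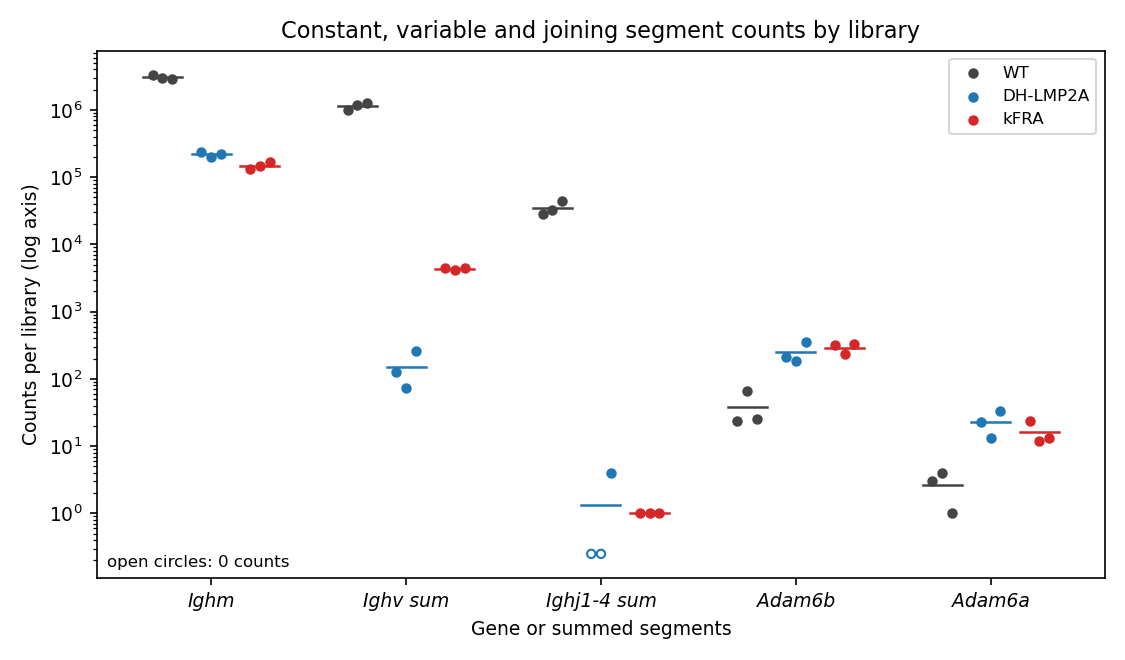
Counts per library (log axis) of Ighm, the summed Ighv genes, the summed joining segments Ighj1 to Ighj4, Adam6b and Adam6a, with 1 point per library and a bar at the mean; open circles stand for 0 counts. Ighm keeps at least 131699 counts in all 9 libraries, while the joining segments have at most 4 counts in any DH-LMP2A or kFRA library.

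Of 10 neighbours in and beside the locus, 9 passed the filter and Tmem121 did not. The 4 joining segments passed only through WT, and Adam6a only through DH-LMP2A and kFRA, so their comparisons with WT are given as values alone. Of the other 4 neighbours, 1, Adam6b, was higher and 0 were lower in each of kFRA and DH-LMP2A than in WT, beside 6.68% and 5.07% of all genes called higher. Adam6a and Adam6b are genes between the variable and the D segments, on DNA that the joining of a variable segment removes. Adam6b was at 2.06 ± 1.15 CPM in WT, against 11.2 ± 4.26 in DH-LMP2A and 17.8 ± 5.91 in kFRA (SD, n = 3 each; log2 ratio 2.44, SE 0.44, and 3.10, SE 0.448, against WT; edgeR adjusted p = 0.00722 and 0.00189). Adam6a was low throughout, at 0.140 ± 0.0709, 1.03 ± 0.456 and 1.01 ± 0.561 CPM in the same order of genotypes. Adam6a and Adam6b are similar copies whose reads cannot be assigned with certainty. No neighbour was called between kFRA and DH-LMP2A.

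No partner of the heavy chain was called lower. Of 12 genes for light chains, chaperones and receptor subunits, 6 were higher and 0 lower in kFRA than in WT, 6 and 0 in DH-LMP2A, and 0 and 0 between kFRA and DH-LMP2A (of all genes, 6.68% were higher in kFRA and 5.07% in DH-LMP2A than in WT, and 17.8%, 12.4% and 5.02% were called in either direction). Their median log2 fold changes were 0.82, 0.91 and -0.26. Jchain, which links IgM and IgA into polymers, was at 17811 ± 2116 CPM in WT, against 30940 ± 6648 in DH-LMP2A and 21101 ± 5676 in kFRA (SD, n = 3 each) and was not called in any comparison (edgeR adjusted p from 0.159 to 0.614).

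The genes that rose included chaperones, a receptor subunit and a light-chain gene. Mzb1, a chaperone of IgM assembly, rose by 1.22 (log2) in kFRA (with SE 0.25; adjusted p = 0.0107 by edgeR) and by 1.80 in DH-LMP2A (SE 0.254, 0.0021). Pdia6, a disulfide isomerase, rose by 1.08 and 1.63 (edgeR adjusted p = 0.00744 and 0.00119), and Erp44, which holds back unfinished IgM, by 0.72 and 1.02 (0.0129 and 0.00309). Hsp90b1, a chaperone, rose by 1.06 and 1.07 (edgeR adjusted p = 0.0183 and 0.021).

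Hspa5, known as BiP, the chaperone that binds the free CH1 domain of heavy chains, rose in kFRA by 0.89 (with SE 0.267; adjusted p = 0.0482 by edgeR), with 4147 ± 665 CPM against 2242 ± 722 in WT and 2306 ± 287 in DH-LMP2A (SD, n = 3 each). In DH-LMP2A its log2 fold change was 0.04 (with SE 0.265; adjusted p = 0.949 by edgeR). The direct comparison of kFRA with DH-LMP2A was not called (log2 ratio 0.85 with SE 0.267; adjusted p = 0.111 by edgeR). Cd79a, a subunit of the B cell receptor, rose in DH-LMP2A by 1.19 (edgeR adjusted p = 0.0145) and was at 0.75 in kFRA (0.0672), and its partner Cd79b was at 0.42 and 0.20 (0.29 and 0.555).

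Among light chains, Iglc1 rose by 2.01 in kFRA (edgeR adjusted p = 0.00259) and 2.99 in DH-LMP2A (0.000401). Igkc, the kappa constant gene, was at 1.57 in kFRA (with SE 0.518; adjusted p = 0.0643 by edgeR) and 0.02 in DH-LMP2A (0.99), although the kFRA libraries did not overlap with WT. Iglc2 was at -0.54 and -0.92 (edgeR adjusted p = 0.2 and 0.0675) and Iglc3 at 0.41 and 0.23 (0.4 and 0.739). The lambda constant genes are similar copies, and Iglc2 and Iglc3 also overlap other genes. Hsp90b1 overlaps genes on both strands and Pdia6 a gene on the opposite strand, so the values of all these genes are uncertain.

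Ighd splicing and the secretory form of the heavy-chain message depend on a small set of RNA-processing genes. Of 7, 1 was higher and 1 lower in kFRA than in WT, 1 higher and 0 lower in DH-LMP2A, and 0 in the direct comparison. With 17.8%, 12.4% and 5.02% of all genes called in either direction, these counts are near the background and are no result about the list. Each gene is given by its own values. Zfp318, required for Ighd expression, fell by 1.39 on a log2 scale in kFRA (with SE 0.399; adjusted p = 0.0412 by edgeR), with libraries that overlapped, and was at -0.99 in DH-LMP2A (SE 0.393, 0.142). Its levels were 31.1 ± 14.2 CPM in WT, against 15.7 ± 3.12 in DH-LMP2A and 11.9 ± 5.10 in kFRA (SD, n = 3 each).

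Ell2, the elongation factor that favours the secretory message, had log2 fold changes of -0.14 in kFRA and 0.28 in DH-LMP2A (edgeR adjusted p = 0.634 and 0.409). Hnrnpll, a splicing regulator of plasma cells, rose in DH-LMP2A by 0.90 (edgeR adjusted p = 0.0305) and was at 0.24 in kFRA (0.471). Hnrnph1 rose in kFRA by 0.65 (edgeR adjusted p = 0.0265) and was at 0.30 in DH-LMP2A (0.298). For Cstf2, Pcf11 and Hnrnpf the log2 fold changes against WT lay between -0.28 and 0.30, and none was called. These 3 genes overlap other genes.

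Several B cell markers were high and low in the same libraries as Ighd. Of 8 B cell markers, 4 were lower and 0 higher in kFRA than in WT, 1 lower and 2 higher in DH-LMP2A, and 2 lower and 0 higher in kFRA than in DH-LMP2A. In the same order 11.1%, 7.3% and 3.3% of all genes were called lower and 6.68%, 5.07% and 1.73% higher. Cd22, an inhibitory co-receptor, was at 94.5, 127.7 and 61.2 CPM in WT, against 5.75, 6.95 and 28.6 in DH-LMP2A and 5.95, 9.03 and 8.40 in kFRA. WT replicate 3 was the lowest WT library and DH-LMP2A replicate 3 the highest DH-LMP2A library, as for Ighd.

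The low-affinity IgE receptor Fcer2a, typical of follicular B cells, was at 27.1, 47.1 and 10.9 CPM in WT, against 1.90, 1.58 and 11.3 in DH-LMP2A and 1.71, 2.47 and 4.32 in kFRA. Pax5, the factor that maintains B cell identity, was at 64.3, 78.7 and 30.5 CPM in WT, against 13.9, 12.9 and 43.3 in DH-LMP2A and 2.94, 9.79 and 8.59 in kFRA. Both had the same low WT library and the same high DH-LMP2A library. Ms4a1 and Cr2, by contrast, rose in DH-LMP2A over WT by 1.19 and 1.13 on the log2 scale (edgeR adjusted p = 0.0182 and 0.0316). Cd22 and Pax5 overlap genes on the opposite strand. The part of B cells in the Ighd values was not tested.

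**Figure D5:**
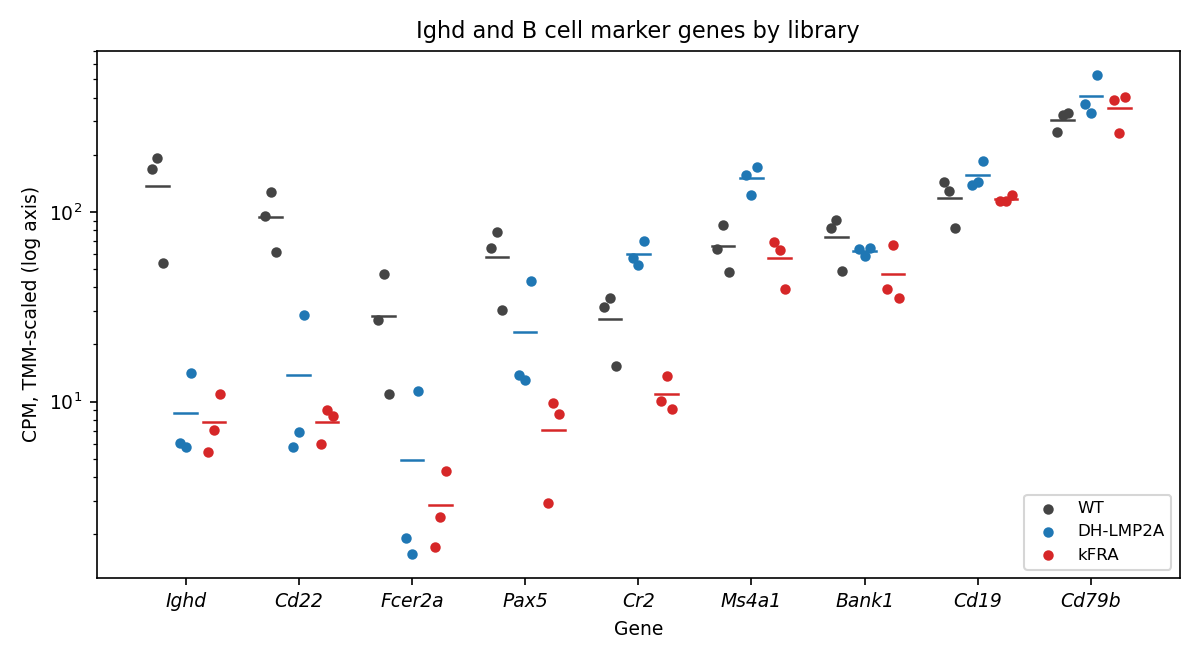
TMM-scaled CPM (log axis) of Ighd and the 8 B cell markers, with 1 point per library, replicates 1 to 3 from left to right, and a bar at the mean. Ighd, Cd22 and Fcer2a are lowest in replicate 3 of WT and highest in replicate 3 of DH-LMP2A, while Ms4a1 and Cr2 are higher in DH-LMP2A than in WT.

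Among the enzymes of class switching 25 genes were tested. Of these 2 were higher and 2 lower in kFRA than in WT, 2 higher and 1 lower in DH-LMP2A than in WT, and 0 higher and 1 lower in kFRA than in DH-LMP2A. Of all genes, 6.68%, 5.07% and 1.73% were called higher and 11.1%, 7.3% and 3.3% lower, so the list was near or below the background. The median log2 fold changes of the list were -0.01 in kFRA and 0.12 in DH-LMP2A against WT and -0.19 between kFRA and DH-LMP2A. Hmces, a protein that shields abasic DNA, rose by 0.92 in kFRA and 0.65 in DH-LMP2A (edgeR adjusted p = 0.0068 and 0.0369). In kFRA against WT, Rnf8, a ubiquitin ligase of the break response, rose by 1.28 (edgeR adjusted p = 0.0237) and Lig4, the ligase of end joining, fell by 0.86 (0.0334). In DH-LMP2A, Apex1, an abasic-site nuclease, fell by 0.75 (edgeR adjusted p = 0.0395) and Msh6, a mismatch sensor, rose by 0.47 (0.0442). Hmces, Rnf8, Apex1 and Msh6 overlap other genes and are uncertain.

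Some of the receptors and factors that direct switching to particular isotypes were lower than in WT. Of 22, 1 (Tbx21) passed the filter only through WT and is left out of the counts against WT. Of the other 21, 9 were lower and 0 higher in kFRA than in WT, and 7 lower and 1 higher in DH-LMP2A, beside 11.1% and 7.3% of all genes called lower and 6.68% and 5.07% higher. Between kFRA and DH-LMP2A, 1 of 22 was lower and 0 higher, beside 3.3% and 1.73% of all genes. The median log2 fold changes were -0.72, -0.42 and -0.13. Il4ra, the receptor chain for interleukin 4, which favours Ighg1 and Ighe, fell by 1.92 in kFRA and 1.71 in DH-LMP2A (edgeR adjusted p = 0.00139 and 0.00307). Il21r, the receptor for interleukin 21, fell by 1.71 and 1.89 (edgeR adjusted p = 0.00365 and 0.00259).

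On the interferon-gamma side, which favours Ighg2c, the receptor chain Ifngr2 fell by 0.87 in kFRA and 0.85 in DH-LMP2A (edgeR adjusted p = 0.00291 and 0.00375). Bcl6, a germinal centre factor, fell by 2.06 and 1.61 (edgeR adjusted p = 0.00476 and 0.0153). Smad4, which carries the TGF-beta signal for Igha switching, rose in DH-LMP2A by 0.59 (edgeR adjusted p = 0.0159) and fell by 0.69 in kFRA against DH-LMP2A (0.0153), with a log2 fold change of -0.10 in kFRA against WT (0.613). Il4ra and Bcl6 overlap other genes. Several genes of this list are also expressed by myeloid and T cells, whose part was not tested.

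Of 12 receptors for the Fc parts of these isotypes, 11 were tested and Fcamr was not. Pigr had at least 10 counts in all 3 libraries of WT alone and is left out of the counts against WT. Of the other 10, 4 were lower and 0 higher in kFRA than in WT, and 5 lower and 1 higher in DH-LMP2A, beside 11.1% and 7.3% of all genes called lower and 6.68% and 5.07% higher. Between kFRA and DH-LMP2A, 1 of 11 was lower and 0 higher, beside 3.3% and 1.73% of all genes. The median log2 ratios were -0.89, -1.15 and 0.11. Fcgr4, a receptor for IgG2 subclasses, fell by 2.44 in kFRA and 2.54 in DH-LMP2A (edgeR adjusted p = 0.00537 and 0.00521). Fcgr1, the high-affinity IgG receptor, fell by 1.12 and 1.80 (edgeR adjusted p = 0.0294 and 0.00466), and Fcer1g, the signalling chain shared by Fc receptors, with log2 ratios of -1.003 and -1.48 (0.0353 and 0.00866).

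Fcer2a had a log2 ratio of -3.32 in kFRA (with SE 0.828; adjusted p = 0.0242 by edgeR) and was at -2.53 in DH-LMP2A (SE 0.784, 0.0683), with overlap between WT and DH-LMP2A. Fcgr2b, the inhibitory IgG receptor of B cells, fell by 0.50 in DH-LMP2A (edgeR adjusted p = 0.0297) and was at -0.35 in kFRA (0.0793). Fcrl1, an Fc receptor homologue of B cells, rose in DH-LMP2A by 0.73 (edgeR adjusted p = 0.0418) and fell by 1.17 in kFRA against DH-LMP2A (0.00971). Fcgr1, Fcgr4 and Fcer1g are mainly myeloid genes. Of 8 myeloid markers, 4 were lower in kFRA than in WT and 1 in DH-LMP2A, with 1, Ly6c2, higher in each. Of all genes, 11.1% and 7.3% were called lower and 6.68% and 5.07% higher. The part of myeloid cells in these values was not tested.

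The genes whose pattern was most like that of each member were found among 9633 genes other than immunoglobulin, by the root mean square (RMS) difference of centred log2 CPM over the 9 libraries. For Ighm these were Gas7 (RMS 0.39), Cxcr3 (0.57) and Dnm3 (0.57), in a pattern that spanned 4.72 on the log2 scale. Gas7 was at 31.8 ± 3.84 CPM in WT, against 2.66 ± 0.239 in DH-LMP2A and 2.00 ± 0.566 in kFRA (SD, n = 3 each). For Ighd they were Gm20559 (0.46), Cd72 (0.50) and Cd22 (0.52), the last pair being B cell surface proteins. For Ighg3 they were Plcd3 (0.53), Clec2g (0.74) and I830127L07Rik (0.77). No gene came as near to the others: the nearest was Wipf3 for Ighg1 (RMS 1.36) and Clec2g for Ighg2b (1.80), Ighg2c (3.07), Ighe (1.40) and Igha (1.92). These are descriptions, since all follow the difference between WT and the other genotypes, and Gas7, Dnm3, Gm20559, Cd72 and Wipf3 overlap genes on the opposite strand.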

How the data were processed

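Poly(A) RNA of CD138-selected spleen cells was made into libraries with a stranded kit and sequenced in 75-base pairs, per the labels' protocols. The authors deposited raw counts per gene, with the exon coordinates and length of each gene, per the file headers. STAR 2.4.0a, featureCounts of Subread 1.5.0-p3, DESeq2 and the build GRCm38 (mm10) are named in the submitters' processing notes. How strand and multiply mapped reads were treated, and the annotation release, are not given in the sources used here. Genotypes were taken from the labels, and replicate numbers from the sample titles.

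Counts were tested with edgeR 4.0.16 in R 4.3.3: filterByExpr by genotype, TMM scaling, a quasi-likelihood fit with 1 coefficient per genotype over all 9 libraries, 2-sided F tests and Benjamini-Hochberg adjustment over 14199 genes, with 0.05 as threshold. Genes with at least 10 counts in all 3 libraries of 1 genotype and in fewer than 3 of the other were left out of the counts of members and list genes given for that comparison. The standard error is the log2 fold change divided by the square root of F. The model was tested on simulated data. Shares were compared by exact permutation tests. Replicates differed by more than sampling noise (chi-square per degree of freedom 17.3 to 164). Sequences were read from GENCODE M21 transcripts with Python 3.11.15 and Biopython 1.88. Exon overlaps were taken from the deposited coordinates. Intervals cover counting error only, since reads carry no molecular identifiers.

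The members and the gene lists were chosen with earlier results of these data known. All 8 members are named. Of the short lists (partners, RNA processing) all genes are named, of the longer ones at most 6 called genes by smallest p. Results of some genes of these lists are not reported here. The alternatives were other scalings (DESeq2 size factors, library size alone, TMM without immunoglobulin genes), other filters and thresholds, the Wald test of DESeq2 1.42.0, the replicate number as a block, only the 6 libraries compared, other denominators of the shares, and leaving out each replicate in turn.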

Additional observations from a re-analysis of the deposited data

How the results depend on the processing

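The 7 members other than Ighe were called lower in kFRA and in DH-LMP2A than in WT under every alternative run, with 1 replicate left out included. Ighe, which passed the filter only through WT, is left out of this count. Between kFRA and DH-LMP2A the count of 1 member fell to 0 with library size alone and with an adjusted p under 0.01, and was 0 to 1 with 1 replicate left out. Replicate numbers did not pair the samples: deviations of same-numbered libraries correlated from -0.211 to 0.196, and not every library correlated best with its own number. With the replicate block the 7 members other than Ighe were again called lower than in WT in both genotypes. Between kFRA and DH-LMP2A 1 member was called, Ighg1, at 2.37 (edgeR adjusted p = 0.0104). Log2 fold changes that were not called between kFRA and DH-LMP2A changed sign without DH-LMP2A replicate 3 (Ighd 0.44, Ighg2b 0.057, Ighg2c 0.12), without kFRA replicate 1 (Ighd 0.056), without kFRA replicate 2 (Ighm 0.062) and without kFRA replicate 3 (Ighe -0.57). With 1 replicate left out they ranged from -0.29 to 0.062 for Ighm, -0.47 to 0.44 for Ighd, -0.57 to 0.057 for Ighg2b, -0.62 to 0.12 for Ighg2c and -0.57 to 2.10 for Ighe. The Ighe values rest on 0 to 5 counts per library, depend on the fit's prior count and do not measure a fold. The cause of the sign changes was not tested. By their construction, shares change with the denominator: as a share of all counts Ighm was 14.0 and 13.8 points lower in kFRA and DH-LMP2A than in WT (differences of -14.0 and -13.8), and without Ighm in the denominator Ighg1 was 3.46 points higher in kFRA than in WT. Library size alone moved the median log2 fold change of all genes to 0.17 in kFRA against WT, 0.33 in DH-LMP2A against WT and -0.14 between them, and the share of higher among called genes from 37.6% to 72.1%, 41% to 79.8% and 34.4% to 26%. The count of all called genes differed by more than 1.5 times from 2523, 1756 and 713 in some fits. In kFRA against WT it was 975 at an adjusted p under 0.01, 1588 with at least 2-fold, 5632 without kFRA replicate 2 and 1271 to 1537 without kFRA replicate 1, kFRA replicate 3 or WT replicate 2. In DH-LMP2A against WT it was 765 at an adjusted p under 0.01, 1094 at a mean of at least 5 CPM and 932 to 1027 without DH-LMP2A replicate 1 or WT replicate 2. In kFRA against DH-LMP2A it was 306 at an adjusted p under 0.01, 1314 by the DESeq2 Wald test, 3299 without kFRA replicate 2 and 352 to 411 without DH-LMP2A replicate 1 or 2 or kFRA replicate 1 or 3. Depth limits Ighe, which had at most 5 counts in any DH-LMP2A or kFRA library.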
